A study of Mus musculus with 8 samples.

Results

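The Notch pathway genes described here are 9 genes taken by name from the deposited tables, out of 35906 genes in the count table: the ligands Dll4 and Jag1, the receptors Notch1, Notch2 and Notch4, the DNA-binding factor Rbpj and the target genes Hes1, Hey1 and Nrarp. The names were not chosen on a measured value, although earlier results of these data, a fall of Hes1 among them, were known when they were proposed. RNA was sequenced from macrophages of BALB/c wild-type mice, sorted from collagenase-digested, perfused liver as live cells bearing CD45 and F4/80, and per the design text lacking the endothelial protein CD31. There were 4 libraries from mice given carbon tetrachloride (CCl4), a hepatocyte toxin used to produce liver fibrosis, and 4 from mice given vehicle. The sources used here do not give age, dose or duration. Whether every library is a mouse of its own is not stated either, and p-values then describe only how much these libraries vary, in part perhaps for technical reasons.

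Notch is a receptor that works by being cut. A ligand of the Delta-like or Jagged family on a neighbouring cell pulls on the receptor, a metalloprotease and then gamma-secretase cleave it, and the freed intracellular part enters the nucleus, where it binds RBPJ and turns on genes such as Hes1, Hey1 and Nrarp. Without that part, RBPJ sits on the same genes with corepressors. In mouse liver, Delta-like 4 on sinusoidal endothelial cells is one of the signals known to steer incoming monocytes towards the resident Kupffer cell identity.

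Total estimated counts ran from 19489104 to 26196063 in CCl4 libraries and from 19686629 to 25816812 in vehicle libraries. As a check of the labelled cell type, 12 general macrophage genes had a summed level of 58070 to 61800 CPM (counts scaled to a common total, here the library total) in CCl4 libraries and 36360 to 42790 CPM in vehicle libraries. The sum does not stand for the 12 as a set. By the edgeR test given below, 1 was higher and 2 were lower in CCl4, and 9 were not called (median log2 fold change -0.12). CCl4 4 and vehicle 2 stood apart, with the smallest totals and counts in 23868 and 23025 genes, against 19265 to 21670 genes in the other libraries. Without both, the fit again called 5 of the 9 Notch genes. Mitochondrial transcripts held 0.763% to 1.16% of counts in CCl4 libraries and 1.91% to 5.31% in vehicle libraries, and the part of this RNA quality measure in the differences below was not tested. All 9 genes passed the low-count filter that left 15212 genes. Between the groups, 5 of the 9 passed edgeR's quasi-likelihood test (two-sided, Benjamini-Hochberg adjusted p below 0.05 over all genes tested), 3 higher and 2 lower in CCl4, where 15.2% of all genes tested passed, 8.93% higher and 6.26% lower. For those same 5 genes the libraries of the groups did not overlap, which held for 22.5% of genes tested. Levels are given below as CPM normalized with TMM factors (edgeR's scaling for composition), with mean ± SD over the 4 libraries of a group, and a positive fold change means higher in CCl4. In bulk RNA, fewer cells of a type and less RNA per cell cannot be told apart.

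**Figure D1:**
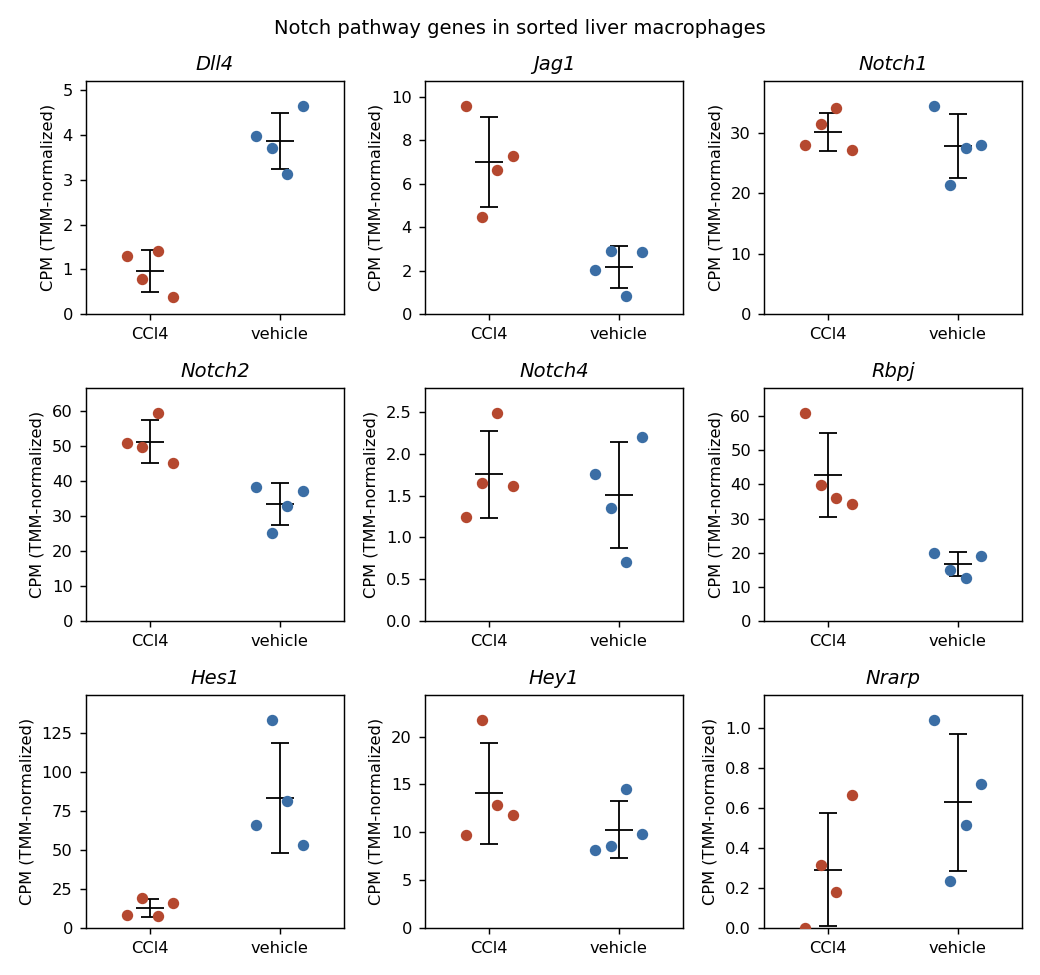
TMM-normalized CPM (linear axis from 0) of the 9 genes in each library, with CCl4 at left and vehicle at right in every panel; points are libraries, and bars are mean and SD of 4. The groups are apart for Dll4 and Hes1 (lower in CCl4) and for Jag1, Notch2 and Rbpj (higher in CCl4), and overlap for Notch1, Notch4, Hey1 and Nrarp.

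The ligands moved in opposite directions: Dll4 fell and Jag1 rose. Dll4 (ENSMUSG00000027314, chromosome 2, 119325784 to 119335962, plus strand, mm10) encodes Delta-like 4, the ligand that liver and arterial endothelium uses. It had 1.29, 0.789, 1.40 and 0.381 CPM in CCl4 1 to 4, against 3.96, 3.72, 3.13 and 4.64 CPM in vehicle 1 to 4. Every CCl4 library lay below every vehicle library. The means were 0.967 ± 0.474 CPM in CCl4 and 3.86 ± 0.628 CPM in vehicle, which is -1.99 as a log2 fold change (SE 0.41, adjusted p = 0.00636 by edgeR). These are low levels: the estimated counts were 8 to 31 per CCl4 library and 79 to 116 per vehicle library.

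Jag1 (ENSMUSG00000027276, chromosome 2, 137081456 to 137116644, minus strand) encodes Jagged 1, a ligand of the other family, known in liver from bile ducts, portal mesenchyme and their development. It had 9.58, 4.50, 6.65 and 7.28 CPM in CCl4 1 to 4 and 2.04, 2.93, 0.831 and 2.88 CPM in vehicle 1 to 4. The groups were again fully apart, here with CCl4 above vehicle. Mean Jag1 was 7.0 ± 2.09 CPM in CCl4 and 2.17 ± 0.981 CPM in vehicle (log2 fold change 1.69, SE 0.38, edgeR adjusted p = 0.0113). The call held without any single library, with an adjusted p of up to 0.0483. On the log2(FPKM + 1) scale of the deposited FPKM table both ligands passed limma's test. The log2 fold changes were only 0.22 for Jag1 and -0.16 for Dll4, since their FPKM lie well below that pseudocount of 1. The low-value filter there asked for 0.1 FPKM in 4 libraries. Jag1 met it only through CCl4 libraries and Dll4 only through vehicle libraries. In limma's run without that filter the adjusted p was 0.0235 for Jag1 and 0.0295 for Dll4.

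Set against each other per length, the ligands changed places. For the coding transcripts Jag1-201 and Dll4-201, the ratio of Jag1 TPM to Dll4 TPM (transcript abundance corrected for length and scaled to a fixed total) was 4.64, 3.45, 2.74 and 11.9 in CCl4 1 to 4, and 0.335, 0.514, 0.173 and 0.408 in vehicle 1 to 4. Jag1 was thus the more abundant of the pair in each CCl4 library and Dll4 in each vehicle library. This ratio is a description with no test of its own. The other ligand genes of the pathway were low and did not pass: Dll1 averaged 0.512 and 0.554 CPM, Dll3 0.990 and 1.20 CPM, and Jag2 1.47 and 0.801 CPM in CCl4 and vehicle (edgeR adjusted p = 0.916, 0.809 and 0.33).

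Sequence upstream of the genes that moved is given for reference, since HES proteins and RBPJ recognise short motifs there. RefSeq windows of 300 bases (build GRCm38.p6, 250 bases before to 50 after a start site) were on hand for 7 of the 9 genes, in 8 windows, and were not on hand for Hes1 and Hey1. They were searched on both strands for CACGNG, a form bound by HES factors, and for TGGGAA, the core bound by RBPJ. The letters of CACGNG occurred in 27.5% and those of TGGGAA in 25.6% of 32851 RefSeq windows. Shown 5′ to 3′ are the bases before the first annotated start in the Dll4 window (chr2:119325534-119325783, plus strand), the Jag1 window (chr2:137116645-137116770, minus strand) and the Rbpj window (chr5:53590096-53590213, plus strand), with matches in capitals.
Dll4: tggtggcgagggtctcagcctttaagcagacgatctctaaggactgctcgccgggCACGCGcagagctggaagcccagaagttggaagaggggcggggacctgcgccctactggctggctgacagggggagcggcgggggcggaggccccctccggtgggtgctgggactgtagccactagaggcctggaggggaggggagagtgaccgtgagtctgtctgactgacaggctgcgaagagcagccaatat
Jag1: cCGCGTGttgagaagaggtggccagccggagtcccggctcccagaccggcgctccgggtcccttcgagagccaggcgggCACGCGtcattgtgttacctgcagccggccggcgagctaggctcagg
Rbpj: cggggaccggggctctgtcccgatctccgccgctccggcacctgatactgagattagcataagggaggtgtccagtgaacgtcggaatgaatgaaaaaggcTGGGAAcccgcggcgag
The Dll4 window held 1 match to CACGNG, at -195 from its start site, and the Jag1 window held 2, at -249 and -171. Of all windows 11.8% had a count of 2 or more. That count takes a palindromic CACGTG as 2, 1 per strand, so the share overstates windows with 2 separate matches. The Notch2 window held 1, at -42, and the Nrarp window held 1 palindromic match, CACGTG, at -108. Rbpj had 2 overlapping windows. The Rbpj window above held 2 matches to TGGGAA, at -149 on the plus strand, shown above, and at -65 on the minus strand, where 3.79% of all windows held 2 or more. The other, with its start site at 53590486, held 1 match, at -205 on the minus strand, a site that lies in both windows. The coding transcript Rbpj-202, described below, starts at 53555834, outside both. The windows of Notch1 and Notch4 held neither motif. A match gives letters only and no evidence of binding.

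Among the receptors Notch2 rose, and Notch1 and Notch4 did not pass the test. Notch2 (ENSMUSG00000027878, chromosome 3, 98013527 to 98150361, plus strand), a receptor with known roles in monocyte and dendritic cell fate in mouse, had 50.8, 49.5, 59.4 and 44.95 CPM in CCl4 1 to 4, against 38.2, 25.03, 32.8 and 37.1 CPM in vehicle 1 to 4. The lowest CCl4 library was above the highest vehicle library. Its means of 51.2 ± 6.02 and 33.3 ± 5.96 CPM in CCl4 and vehicle differed by 0.62 as a log2 fold change (SE 0.16, adjusted p = 0.0230 by edgeR). That call was lost without CCl4 3 (adjusted p = 0.0568) or vehicle 3 (0.0685), and with limma on the FPKM table (0.335, log2 fold change 0.13 on the log2(FPKM + 1) scale).

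Notch1 (ENSMUSG00000026923, chromosome 2, 26457903 to 26516663, minus strand), the receptor best known from T cell and endothelial fate, did not pass the test. It had 28.1, 31.4, 34.1 and 27.3 CPM in CCl4 1 to 4 and 34.5, 21.5, 27.6 and 28.1 CPM in vehicle 1 to 4, with full overlap. The log2 fold change was 0.11 (SE 0.16, edgeR adjusted p = 0.707). The estimate depended on the unit, at -0.02 with library size as the only scaling, 0.60 with counts rescaled by TPM and length, and 0.45 and 0.85 with limma on log2(FPKM + 1) and log2(FPKM + 0.1), and it passed in none of them. Notch4 (ENSMUSG00000015468, chromosome 17, 34564268 to 34588503, plus strand), a mostly endothelial receptor, had 1.25 to 2.49 CPM in CCl4 libraries and 0.712 to 2.20 CPM in vehicle libraries (log2 fold change 0.22, SE 0.43, edgeR adjusted p = 0.796). It had 27 to 55 counts in CCl4 libraries and 18 to 55 in vehicle libraries. Its log2 fold change was 1.18 with counts rescaled by TPM and length and 1.03 with limma on log2(FPKM + 0.1), and neither passed (adjusted p = 0.155 and 0.0657). Notch3, the receptor of pericytes and smooth muscle, had 3 to 11 counts in CCl4 libraries and 3 to 14 in vehicle libraries and was not tested.

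The estimated transcripts behind these receptor values matter to the unit. Notch2 counts came from the coding transcript Notch2-201 and from a retained-intron transcript, Notch2-202. Notch2-201 was at 4.83, 5.02, 5.02 and 4.84 TPM in CCl4 1 to 4 and 3.81, 2.64, 3.54 and 4.05 TPM in vehicle 1 to 4. Notch2-202 was at 4.88 to 7.02 TPM in CCl4 libraries and 0.889 to 4.22 TPM in vehicle libraries, so both transcripts were higher in each CCl4 library than in any vehicle library. For Notch4, gene TPM separated the groups, at 1.01 to 1.65 in CCl4 and 0.269 to 0.910 in vehicle, while counts did not. Such separation in TPM held for 19.9% of genes tested. Its share over single transcripts was not counted. The coding transcript Notch4-201 was at 0.186 to 0.355 TPM in CCl4 libraries and 0.133 to 0.433 TPM in vehicle libraries. The remaining 68.2% to 84.2% of Notch4 TPM in CCl4 libraries lay in non-coding transcripts that held 5.88% to 18.5% of its counts. In CCl4 4 alone, gene TPM of Notch1 reached 14.2, against 3.32 to 7.14 in the other libraries, with 5.32 TPM resting on 3 estimated counts of the 157-base transcript Notch1-208. The coding Notch1-201 was at 3.27 to 3.77 TPM in CCl4 libraries and 2.17 to 3.86 TPM in vehicle libraries. The retained-intron transcript Notch1-205 was lower in each CCl4 library than in any vehicle library, at 0.474 to 0.604 TPM in CCl4 and 0.791 to 1.18 TPM in vehicle.

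**Figure D2:**
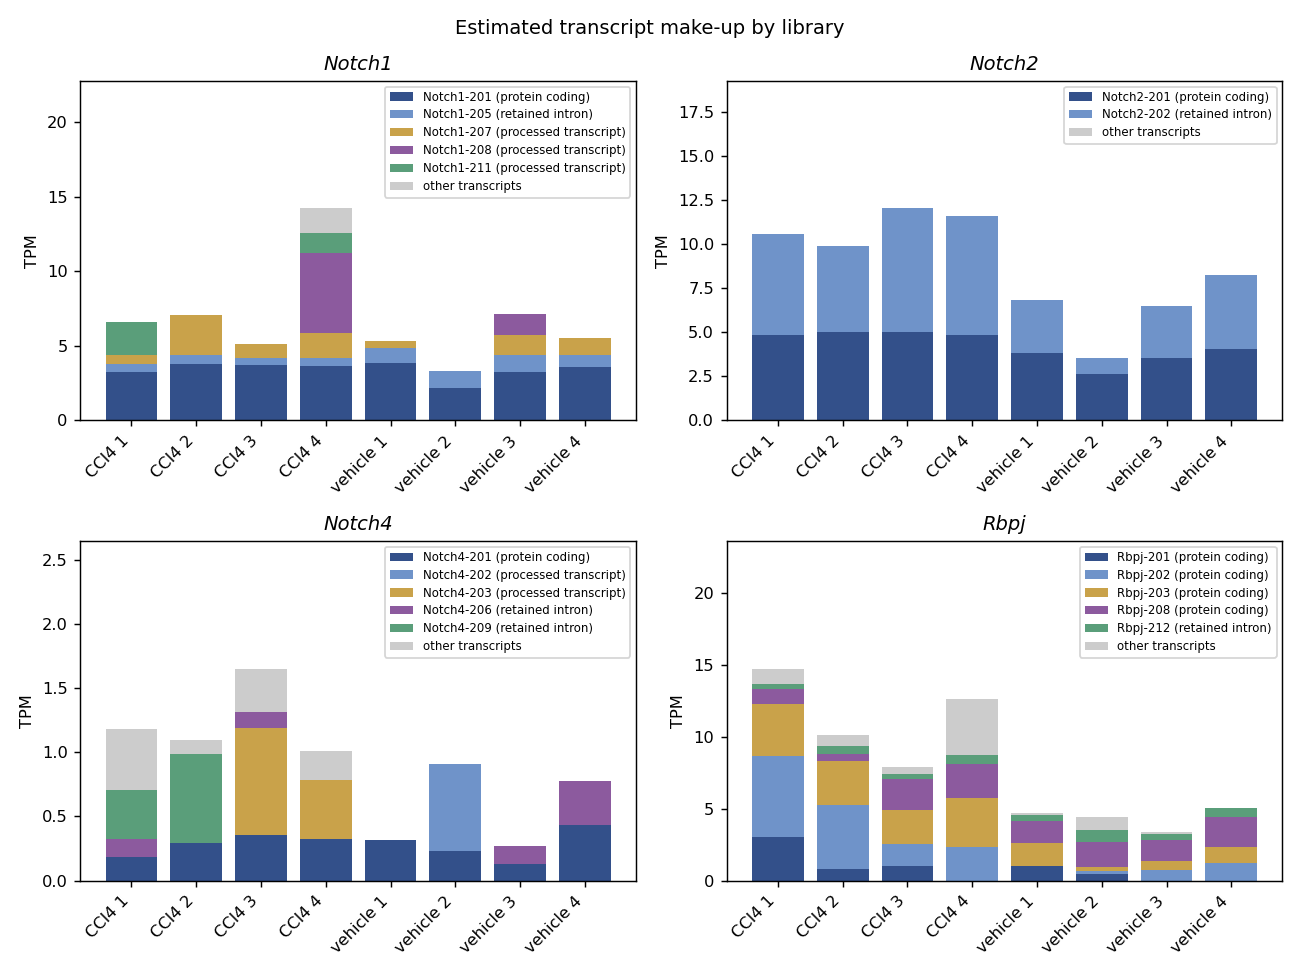
Estimated TPM (linear axis from 0) of the transcripts of Notch1, Notch2, Notch4 and Rbpj, stacked for each library, CCl4 1 to 4 and then vehicle 1 to 4; colours are the 5 transcripts of highest mean TPM and grey is the rest. Notch1 and Notch4 differ between libraries mostly in non-coding transcripts, while Notch2 and Rbpj are also higher in CCl4 in coding ones.

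Rbpj, the factor through which all Notch receptors act on DNA, rose. Rbpj (ENSMUSG00000039191, chromosome 5, 53466152 to 53657362, plus strand) had 61.0, 39.9, 35.9 and 34.2 CPM in CCl4 1 to 4, against 20.02, 15.1, 12.7 and 18.97 CPM in vehicle 1 to 4. No library of one group fell within the range of the other. Mean Rbpj was 42.8 ± 12.4 CPM in CCl4 and 16.7 ± 3.40 CPM in vehicle (log2 fold change 1.36, SE 0.22, edgeR adjusted p = 0.00139), and without any single library the log2 fold change stayed between 1.16 and 1.47.

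The Rbpj rise was spread unevenly over transcripts that differ at their 5′ ends. Of the 4 main coding transcripts, Rbpj-201, Rbpj-202, Rbpj-203 and Rbpj-208, which share 9 identical exons, Rbpj-202 starts 34.4 kb before Rbpj-201. Rbpj-202 was estimated at 5.64, 4.46, 1.49 and 2.36 TPM in CCl4 1 to 4 and at 0.00739, 0.223, 0.778 and 1.24 TPM in vehicle 1 to 4. Rbpj-203 was at 2.36 to 3.65 TPM in CCl4 libraries and 0.249 to 1.57 TPM in vehicle libraries. For both, the groups did not overlap, a separation whose share over all transcripts was not counted. Rbpj-208 did overlap, at 0.514 to 2.35 TPM in CCl4 and 1.48 to 2.06 TPM in vehicle. So did Rbpj-201, at 0 to 3.02 TPM in CCl4 and 0 to 1.02 TPM in vehicle. Reads that tell these transcripts apart lie only in the exons they do not share, the estimates vary widely within a group, and no test was run on them.

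Of the target genes, Hes1 had the largest fold change of the 9, and Hey1 and Nrarp did not pass. Hes1 (ENSMUSG00000022528, chromosome 16, 30064384 to 30067796, plus strand) encodes a transcriptional repressor that is the standard readout of Notch signalling, though other pathways also drive it. It had 8.05, 19.1, 7.79 and 15.7 CPM in CCl4 1 to 4 and 65.8, 133, 81.0 and 53.1 CPM in vehicle 1 to 4. The highest CCl4 library was below the lowest vehicle library. Means were 12.7 ± 5.66 CPM in CCl4 and 83.3 ± 35.3 CPM in vehicle, which is -2.72 as a log2 fold change (SE 0.36, adjusted p = 0.000411 by edgeR) and ranked 303rd of 15212 genes by p. Over 20 alternative settings the log2 fold change lay between -2.98 and -2.15, and each passed. The coding transcript Hes1-201 carried most of it, at 6.72 to 18.8 TPM in CCl4 libraries and 55.5 to 121 TPM in vehicle libraries.

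Hey1 (ENSMUSG00000040289, chromosome 3, 8663359 to 8667256, minus strand), a related repressor of vessels and heart, had 9.76, 21.8, 12.9 and 11.8 CPM in CCl4 1 to 4 and 8.13, 8.55, 14.6 and 9.80 CPM in vehicle 1 to 4. The groups overlapped, with means of 14.1 ± 5.30 CPM in CCl4 and 10.3 ± 2.95 CPM in vehicle (log2 fold change 0.46, SE 0.27, edgeR adjusted p = 0.307). Its estimate was thus on the other side of 0 from that of Hes1; the difference between the genes was not tested. Nrarp (ENSMUSG00000078202, chromosome 2, 25180758 to 25183339, plus strand), which encodes a small ankyrin protein that feeds back on the Notch nuclear complex, was near the limit of detection. It had 0, 8, 4 and 14 counts in CCl4 1 to 4 and 26, 5, 13 and 18 counts in vehicle 1 to 4. The 0 in CCl4 1 allows up to 3 counts, or 0.139 CPM, from counting error only. The log2 fold change was -1.10 (SE 0.83, edgeR adjusted p = 0.436), and Nrarp shares 2051 exonic bases with the antisense gene Gm38287, whose reads cannot be told apart here. Smaller exonic overlaps with other annotated genes exist for Notch1 (1068 bases with 0610009E02Rik and 414 with Gm13568, both antisense), Notch2 (541 with Gm42820 on the same strand) and Dll4 (214 with the antisense Gm14207). Among further targets, Hes5 had a count in no CCl4 library and in 2 vehicle libraries, with 3 and 5 counts. Heyl and Dtx1 were tested and did not pass (log2 fold changes -0.47 and -0.24).

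Ordered by TPM of coding transcripts, which corrects for length, Hes1 was the most abundant of the 9 in either group. In CCl4 the order was Hes1 (12.4 ± 6.33 TPM), Rbpj (9.92 ± 2.57), Hey1 (7.60 ± 3.02), Notch2 (4.93 ± 0.107), Notch1 (3.59 ± 0.224), Jag1 (1.46 ± 0.495), Dll4 (0.319 ± 0.136), Notch4 (0.289 ± 0.0730) and Nrarp (0.159 ± 0.167). The libraries of Hes1, Rbpj and Hey1 overlapped there, as did those of Dll4, Notch4 and Nrarp, and the other neighbours in this order did not overlap. In vehicle it was Hes1 (79.6 ± 29.7 TPM), Hey1 (5.52 ± 1.95), Rbpj (3.6 ± 0.874), Notch2 (3.51 ± 0.615), Notch1 (3.22 ± 0.746), Dll4 (1.34 ± 0.264), Jag1 (0.490 ± 0.225), Nrarp (0.329 ± 0.174) and Notch4 (0.280 ± 0.128). Here Hes1 stood apart, the 4 genes from Hey1 to Notch1 overlapped with their neighbours, Dll4 was apart from both neighbours, and Nrarp overlapped with Jag1 and Notch4. For Hes1, the 3 genes whose level deviated most alike from library to library, after each group's mean was removed, were Ppp3cb, Mrpl16 and Cep290 (Pearson r of 0.99, 0.98 and 0.97 over 8 libraries, the highest among 8002 candidates and so no evidence of a link).

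The wider pathway was represented by 63 genes in 9 lists by role, the 9 genes included. Of 60 tested, 12 were higher and 3 lower in CCl4, beside the 15.2% called over all genes. Their median log2 fold change was 0.13, against -0.03 for all genes tested, and -0.004 with library size as the only scaling, which moved the median of all genes to -0.15. Without the 9, 51 were tested, 9 rose and 1 fell.

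The largest estimated rises of the wider pathway were in the receptor protease list, those of Aph1c and Furin. They were close to that of Jag1 (log2 fold change 1.69). Of 10 receptor protease genes, 3 rose and 1 fell. Furin, the convertase that makes the first cut in the receptor on its way to the surface, averaged 72.8 ± 12.4 CPM in CCl4 and 22.4 ± 2.70 CPM in vehicle (log2 fold change 1.70, SE 0.16, edgeR adjusted p = 5.98e-05). The gamma-secretase gene Psen2 averaged 71.8 ± 15.4 CPM in CCl4 and 37.6 ± 4.34 CPM in vehicle (log2 fold change 0.93, edgeR adjusted p = 0.00329). Its partner subunits Aph1c and Aph1b went opposite ways, Aph1c at 112 ± 11.02 and 32.3 ± 6.999 CPM (log2 fold change 1.80) and Aph1b at 15.6 ± 2.45 and 27.0 ± 6.30 CPM (-0.79) in CCl4 and vehicle. These are close paralogs in mouse between which the counting could share reads, so their values are uncertain. The sheddases Adam10 and Adam17 were at 239 and 262 CPM in CCl4 and at 171 and 165 CPM in vehicle, with groups apart, and missed the threshold (edgeR adjusted p = 0.0984 and 0.0796), as did Aph1a (0.0519).

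Regulators of the receptor and corepressors also included risers. Of 10 receptor turnover genes 4 rose: the Deltex ubiquitin ligase genes Dtx4 (46.8 ± 6.80 CPM in CCl4 and 20.8 ± 5.31 CPM in vehicle, log2 fold change 1.17), Dtx2 (1.00) and Dtx3 (0.76), and Sel1l (0.62), which serves protein quality control in the endoplasmic reticulum. The Sel1l call (edgeR adjusted p = 0.0455) ended in 12 of 20 alternative settings. Of 11 corepressor genes 2 rose, among them the Groucho-family Tle3, which averaged 14.8 ± 2.31 CPM in CCl4 and 8.44 ± 1.67 CPM in vehicle (log2 fold change 0.81). The 11 as a set did not rise, with log2 fold changes from -0.44 to 0.81 and a median of -0.10. Their sum was 161 to 195 CPM of the library total in CCl4 libraries and 203 to 212 CPM in vehicle libraries. Without CCl4 1 the calls of Tle3 and Aph1b ended (edgeR adjusted p = 0.0523 and 0.0562), and without vehicle 3 that of Aph1b did (0.0567). With limma on the FPKM table the calls of Furin, Dtx3, Tle3 and Aph1b ended in each of 3 settings, with log2 fold changes of 0.56 and 0.78 and an adjusted p of up to 0.371 for Furin. That of Dtx2 ended in 2 of them (adjusted p = 0.0552 and 0.128) and that of Psen2 in 1 (0.0846). None of 4 ligand ubiquitin ligase genes, such as Mib1, and none of 5 receptor glycosylation genes, such as the Fringe gene Lfng, passed in this fit, with log2 fold changes from 0.09 to 0.58 and from -0.19 to 0.13. In the nuclear complex Rbpj was the single call among 7, and the Mastermind coactivators Maml1 to Maml3 had log2 fold changes of 0.37, -0.15 and 0.12.

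**Figure D3:**
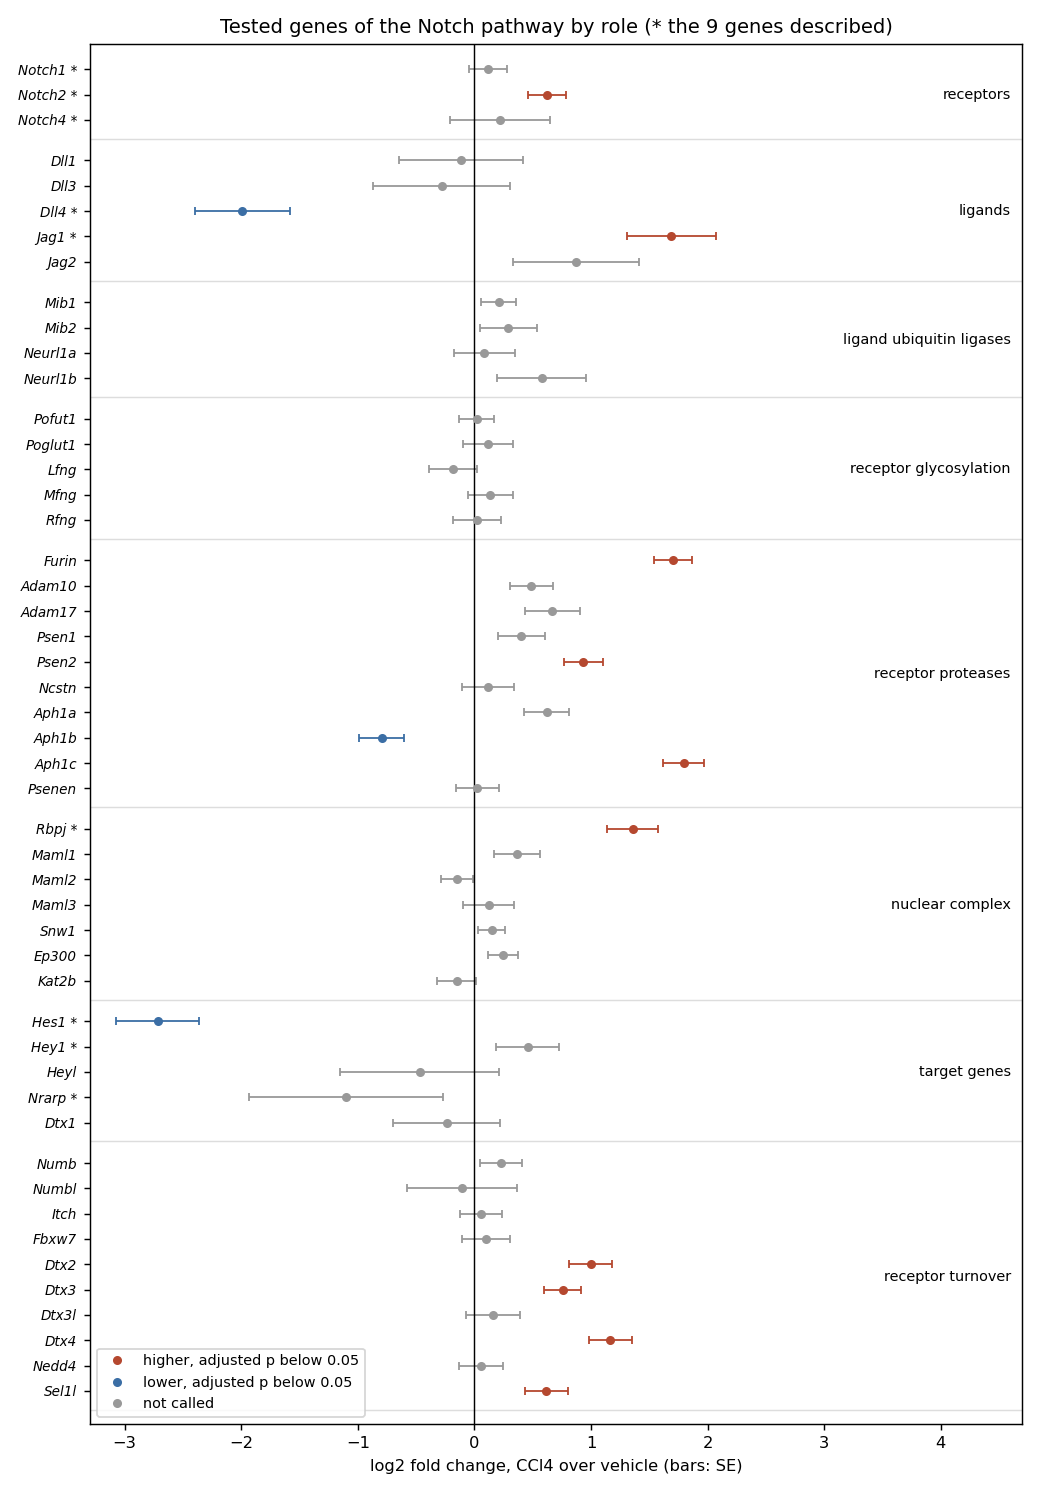
Log2 fold change (CCl4 over vehicle, linear axis) of the tested genes of the wider Notch pathway in 8 of the 9 roles (the corepressors are not drawn), grouped by role from top to bottom; bars are SE, and an asterisk marks the 9 genes described. Red (higher) and blue (lower) mark an edgeR adjusted p below 0.05, and Hes1, Dll4 and Aph1b are the ones lower in CCl4.

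Between the groups, most endothelial and Kupffer cell markers fell, as Dll4 and Hes1 did. Of 26 endothelial markers, none at 0 in any group, 18 were lower and 1, Fcgr2b, an antibody receptor that macrophages also express, was higher. Without Fcgr2b, left out after its value was seen, the median log2 fold change of the remaining 25 was -1.25, beside -1.99 for Dll4, and their sum was 339.8 to 440.1 CPM in CCl4 libraries and 876 to 1383 CPM in vehicle libraries. Besides Fcgr2b, the most abundant were Clec4g (55.0 ± 15.5 CPM in CCl4, 172 ± 25.7 CPM in vehicle) and Stab2 (82.4 ± 19.2 and 219 ± 75.1 CPM), genes of sinusoidal endothelium. Pecam1, which encodes the CD31 protein that the sort was to exclude, averaged 27.4 CPM in CCl4 and 73.8 CPM in vehicle. Of 20 Kupffer cell markers, none at 0, 19 fell, and their sum was 9593 to 16630 CPM in CCl4 libraries and 30320 to 45360 CPM in vehicle libraries. Clec4f (log2 fold change -1.72), Fcna (-2.86) and Cd5l (-1.26) were the most abundant. Cdh5 stands in both lists. Within the groups, single libraries went both ways. Vehicle 2, which stood apart above, had the highest Hes1 (146 CPM of the library total) and the lowest sums of both lists in its group. CCl4 2 had the highest Hes1 (18.8 CPM of the library total) and the highest Kupffer cell sum of its group, with an endothelial sum of 341.9 CPM. Vehicle 4 had the highest Dll4 (4.95 CPM of the library total) and the highest endothelial sum of its group. Vehicle 3 had the lowest Dll4 of that group (3.30 CPM) with an endothelial sum of 1080 CPM. CCl4 4 had the lowest Dll4 (0.41 CPM) and the lowest endothelial sum (339.8 CPM) of its group. The part of either cell type in the Dll4 and Hes1 values was not tested.

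**Figure D4:**
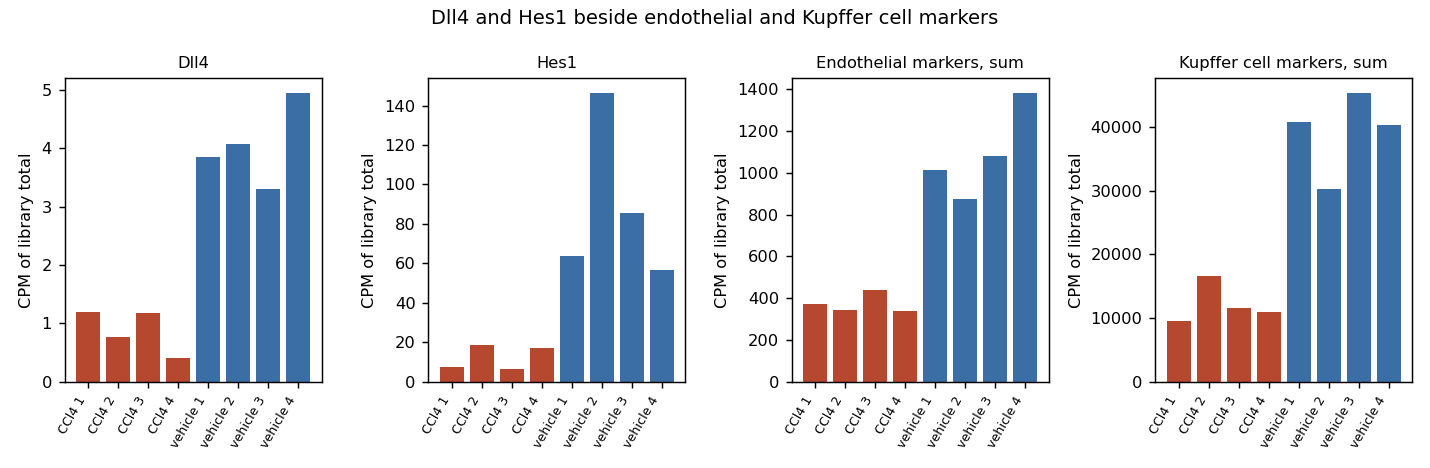
Dll4, Hes1, the summed 25 endothelial markers (without Fcgr2b) and the summed 20 Kupffer cell markers in each library, as CPM of the whole library, TMM factors left out (linear axes from 0), CCl4 libraries at left in red and vehicle libraries at right in blue. Each of the 4 quantities is lower in every CCl4 library than in any vehicle library.

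Some lists of markers of other cells held rises, as Jag1, Notch2 and Rbpj did, and others were mixed or held none. Of 7 mesothelial markers 5 rose, with a sum of 69.7 to 153 CPM in CCl4 libraries and 8.57 to 36.7 CPM in vehicle libraries. Of 8 cholangiocyte markers 6 were tested and 3 rose, and their sum of 1462 to 3092 CPM in CCl4 and 23.5 to 249 CPM in vehicle was mostly Spp1, which macrophages express as well. The ductal keratin Krt19 averaged 6.44 CPM in CCl4 and 0.943 CPM in vehicle. Of 8 monocyte markers 4 rose, summing to 471 to 614 CPM in CCl4 libraries and 90.8 to 151 CPM in vehicle libraries, among them Ccr2, the receptor that brings monocytes out of the marrow (log2 fold change 2.18). Of 13 stellate cell markers 3 rose and 4 fell, and of 10 neutrophil markers 4 rose. Of 10 hepatocyte markers 1 fell, of 11 tested lymphocyte markers 1 fell, and of 8 dendritic cell markers 1 rose and 1 fell. No marker on these lists was at 0 in all libraries of a group, and the part of these cells in the Jag1, Notch2 and Rbpj values was not tested.

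**Figure D5:**
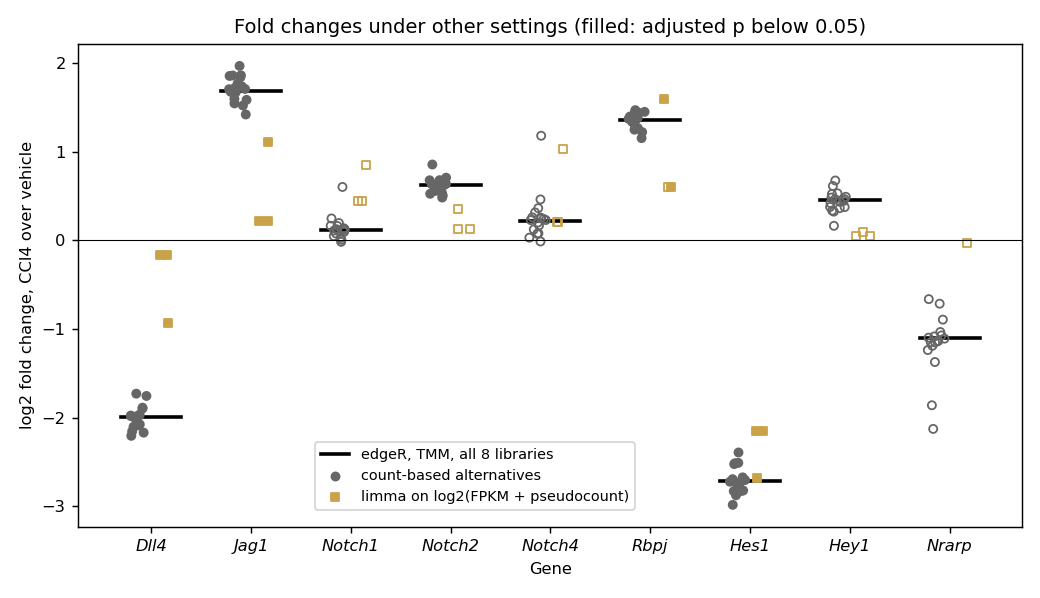
Log2 fold change (CCl4 over vehicle, linear axis) of each of the 9 genes under the alternative settings; the black line is edgeR with TMM on all 8 libraries, grey circles are count-based alternatives, yellow squares are limma on the FPKM table, and filled symbols have an adjusted p below 0.05. Dll4, Jag1 and Hes1 are filled throughout, Rbpj has 1 open square, and Notch2 is open in 5 of 20 settings. Notch1, Notch4, Hey1 and Nrarp are open throughout.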

How the data were processed

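RNA was measured in 8 libraries of sorted liver macrophages, 4 per group, grouped by the treatment label. The tools named, per the submitters' processing notes, are kallisto, edgeR and limma, and the build is mm10. The sources used here give no version, role or transcript release. The authors deposited kallisto estimated counts per transcript, not normalized between libraries, with TPM (per effective length, scaled within a library), and a table of FPKM per gene whose making is not stated. Per the labels' protocols RNA was amplified with a SMART-Seq kit and no strand-marking step is named.

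Transcripts were matched to GENCODE M21 by identifier without version (116405 of 117494 matched, 13 with the version too). The unmatched ones held 0.29% to 0.313% of counts. Estimated counts were summed over 35906 genes and rounded. edgeR 4.0.16 (R 4.3.3) with filterByExpr (minimum count 10, total 15), TMM factors and group as the sole term gave the tests. SE is the log2 fold change divided by the square root of F. The test was checked on simulated counts. Alternatives used DESeq2 1.42.0, limma 3.58.1 on log2(FPKM + 1) or log2(FPKM + 0.1), counts rescaled by the deposited TPM and lengths, other scaling and filters, and fewer libraries. FPKM were kept at 0.1 or more in 4 libraries.

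The 9 genes, the lists and the tests were chosen with earlier results of these data known. Named were the 9 genes, every called gene of the pathway lists (1 is not reported here), the 3 endothelial and Kupffer cell markers of highest TPM, and the 3 genes most like the called gene of highest CPM (candidates had a mean CPM of 10 or more). Adam10, Adam17, Aph1a, the uncalled ligands, receptors, targets and Mastermind genes, Mib1, Lfng, Krt19, Spp1, Ccr2, Pecam1 and Cdh5 were named after their values were seen. In the 38 sets of 4 values checked, from the 9 genes and the other called pathway genes, Dixon's test flagged no value. With 4 values it flags only a very large gap (critical value 0.829), and it does not describe whole libraries.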

Additional observations from a re-analysis of the deposited data

How the results depend on the processing

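Over 20 alternatives, the 5 calls among the 9 Notch genes came to between 4 and 5 when 1 library was left out and to 3 with limma on log2(FPKM + 1) without a low-value filter, where those of Notch2 and Rbpj were lost (adjusted p = 0.507 and 0.0915). The 15 calls in the wider pathway came to 12 to 17 when 1 library was left out, and with limma to 8 at a pseudocount of 1, 7 at 0.1 and 5 without a filter. Calls over all genes numbered 2311 (1358 higher, 953 lower), 1582 to 2666 when 1 library was left out, and with limma 1256, 1289 and 650. They split into 1082 higher and 1431 lower with library size only, and 1226 higher and 1356 lower with upper-quartile scaling. Fewer genes passed limma's low-value filter (12020) than edgeR's (15212), and 24443 were tested without a filter; the cause of the lower counts was not tested. Neither Notch1 nor Notch4 was called in any setting. The log2 fold change of Notch1 ran from -0.015 with library size only to 0.85 with limma on log2(FPKM + 0.1). That of Notch4 ran from -0.011 without vehicle replicate 3 to 1.18 with counts rescaled by TPM and length, and when 1 library was left out it reached 0.46, without vehicle replicate 4. Without CCl4 4 and vehicle 2 together, and with counts of coding transcripts alone, an alternative chosen after seeing the data, the 9 genes again gave 5 calls and the wider list 18. The same-numbered libraries did not deviate together (r between -0.24 and 0.04), and no CCl4 library matched its own number best. With the replicate number as a block the calls were 5, 17 and 2110, beside 5, 15 and 2311. Of 378 log2 fold changes recomputed for the 9 genes and the other called pathway genes, 336 kept direction and call. In 2 settings Nrarp was too low to be tested.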
